A study of Homo sapiens with 6 samples.

Results

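The genes described here encode the alpha subunits of the heterotrimeric G proteins. They are GNAS, GNAI1, GNAI2, GNAI3, GNAO1, GNAZ, GNAQ, GNA11, GNA12 and GNA13, that is 10 of the 63677 genes in the tables and 10 of the 16 human G alpha genes looked up by name. They were picked by symbol, with earlier results of these libraries known, so their values are a description of the family and are not used as support for an effect. RNA came from SW480, an established human colorectal cancer line, stably transduced with a lentiviral vector that expressed either GFP, the control, or POU5F1B, a retrogene copy of the pluripotency gene POU5F1, from a doxycycline-inducible promoter. Both groups were kept in 1 µg/mL doxycycline for 72 h, so the control cells carried a vector and the drug as well. Each group had 3 libraries of polyA RNA, and the labels do not say whether these came from separate transductions or cultures, so p-values measure the spread between these libraries only. In the study, the transduced cells were selected with puromycin, and both the GFP and the POU5F1B protein were HA-tagged.

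A G protein consists of an alpha, a beta and a gamma subunit and sits on the inner face of the plasma membrane. A receptor with 7 transmembrane helices, once bound by its ligand, makes the alpha subunit exchange GDP for GTP. Alpha and beta-gamma then act on separate effectors until the alpha subunit hydrolyses its GTP, a step that RGS proteins accelerate. The alpha subunits fall into 4 classes. Gs activates adenylyl cyclase, Gi/o inhibits it, Gq/11 activates phospholipase C beta, and G12/13 acts through guanine nucleotide exchange factors such as ARHGEF12.

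The libraries held 10767947 to 12787637 counts, and a floor of 3 counts equalled 0.229 to 0.278 CPM, the count relative to a library size corrected by the TMM method. POU5F1B itself had 6, 5 and 1 counts in GFP replicates 1, 2 and 3, and 15027, 11393 and 1458 in POU5F1B replicates 1, 2 and 3. All 3 induced libraries thus matched their label, but not to the same degree. As CPM they had 1182, 1056 and 121, so POU5F1B replicate 3 carried far less of the transcript than replicates 1 and 2. GFP replicate 3 stood apart from every other library: the SD across genes of the log2 CPM difference was at least 0.80 against any of them, whereas replicates 1 and 2 were 0.33 apart with GFP and 0.34 apart with POU5F1B. POU5F1B replicate 3 was also apart, at 0.58 and 0.62 from its own group. It was about as near to GFP replicates 1 and 2, at 0.61 and 0.63. The 6 epithelial markers looked at (EPCAM, KRT8, KRT18, KRT19, CDH1, VIL1) were present in each library, but at unequal levels. KRT8 ranged from 35126 to 48850 counts, KRT18 from 37704 to 47655 and KRT19 from 3931 to 7261. EPCAM had 1030, 1174 and 5962 counts with GFP and 4073, 3569 and 3029 with POU5F1B, and CDH1 400, 396 and 836 and then 2085, 1711 and 1181. VIL1 had 274, 184 and 2420 counts with GFP and 543, 406 and 1332 with POU5F1B, highest in replicate 3 of each group. The leukocyte genes PTPRC, CD3E and CD68 had at most 3 counts. Of 4 fibroblast genes, COL1A1 was the exception to low counts, with 1681, 1553 and 194 counts with GFP and 86, 60 and 114 with POU5F1B; COL1A2, DCN and LUM had at most 34. Of the endothelial genes, CDH5 had at most 2 counts and VWF 13 to 81. Both neuroendocrine genes were detected, and CHGA had 194, 215 and 347 counts with GFP and 17, 20 and 303 with POU5F1B.

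To show the sequence context of the members that the results turn on, the promoters of GNAI1, GNAI3 and GNAO1 are given. GNAI1 varied most between libraries, GNAI3 is the relative of it that varied little, and GNAO1 was the member with the smallest adjusted p within replicates 1 and 2. Each is the 250 bases before the first transcription start that RefSeq lists for the gene (build GRCh38.p14, plus strand), at chr7:80134581-80134830, chr1:109548365-109548614 and chr16:56191239-56191488. Capitals mark GGGCGG or its complement CCGCCC (the GC box) and TGACGTCA (the palindromic cAMP response element); TATAAA was searched on both strands as well.
GNAI1: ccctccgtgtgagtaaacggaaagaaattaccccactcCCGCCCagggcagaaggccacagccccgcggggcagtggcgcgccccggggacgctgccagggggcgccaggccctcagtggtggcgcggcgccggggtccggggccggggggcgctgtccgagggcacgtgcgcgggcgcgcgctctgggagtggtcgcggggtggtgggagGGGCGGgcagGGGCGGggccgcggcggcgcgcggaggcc
GNAI3: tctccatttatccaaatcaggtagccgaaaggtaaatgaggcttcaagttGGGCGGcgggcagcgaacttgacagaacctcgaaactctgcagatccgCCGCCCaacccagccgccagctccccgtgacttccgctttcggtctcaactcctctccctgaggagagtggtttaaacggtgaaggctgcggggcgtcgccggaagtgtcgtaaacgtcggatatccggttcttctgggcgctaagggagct
GNAO1: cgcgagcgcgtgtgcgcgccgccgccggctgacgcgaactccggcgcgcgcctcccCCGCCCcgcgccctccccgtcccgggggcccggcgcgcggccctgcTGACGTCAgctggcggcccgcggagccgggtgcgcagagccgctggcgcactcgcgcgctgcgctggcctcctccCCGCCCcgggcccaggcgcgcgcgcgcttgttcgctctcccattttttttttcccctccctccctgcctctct
The GNAI1 stretch held 3 GC boxes, the GNAI3 stretch 2, and the GNAO1 stretch 2 together with 1 cAMP response element. The background was all 34961 windows of 250 bases before a listed start, with alternative starts of a gene included. Of these, 42.7% held a GC box, 1.7% the cAMP response element and 10.7% TATAAA. The GC contents of the GNAI1, GNAI3 and GNAO1 stretches were 79.6%, 57.6% and 79.2%, against a median of 58.4% over all windows. RefSeq entries were matched for 8 of the 10 members, with 18 starts in all, of which 8 (44.4%) had a GC box, 1 the cAMP response element and 1 TATAAA. GNAQ and GNAZ were not matched. These letters are a description of the windows and do not say which factors bind there.

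All 10 members had counts and all 10 passed the filter on low counts. Levels were compared between genes as CPM per kilobase, once on all merged exons of a gene and once on its canonical transcript. On merged exons GNAS was highest, at 45.7 ± 7.90 CPM per kilobase with GFP and 40.2 ± 1.17 with POU5F1B (SD, n = 3). GNAI2 followed at 39.9 ± 12.1 and 35.4 ± 2.17, and the libraries of GNAS and GNAI2 overlapped. The further members GNA12, GNA13, GNAI3, GNA11 and GNAQ formed a middle group whose means over the 6 libraries ran from 8.86 to 14.6 CPM per kilobase, each overlapping its neighbour in the order. GNAI1, GNAZ and GNAO1 were lowest, with means of 1.59, 1.24 and 1.04, and again overlapped. The order at the top depended on the length used: GNAS has 77 annotated transcripts, 22221 bases of merged exons and a canonical transcript of 1854 bases. On canonical transcripts GNAS had 515 CPM per kilobase over the 6 libraries and no longer overlapped GNAI2, with 126; GNA13 then ranked below GNA11 and GNAO1 above GNAI1. SW480 cells thus carried transcripts of all 4 classes, with GNAS and GNAI2 ahead of the others on both lengths.

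**Figure D1:**
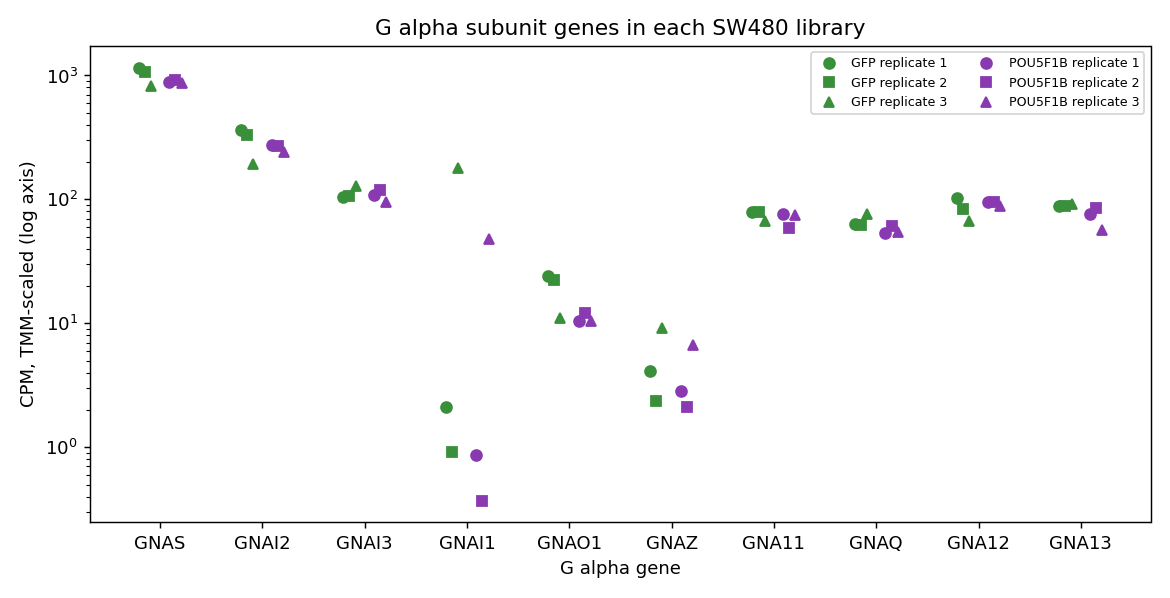
CPM of each G alpha gene (log axis) in the 6 libraries, green for GFP and purple for POU5F1B, with a circle, square or triangle for replicates 1, 2 and 3. GNAS lies near 1000 CPM in each library, whereas GNAI1 spans 0.371 to 178 CPM with both triangles on top.

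GNAS encodes the alpha subunit of Gs, which raises cAMP (ENSG00000087460; chromosome 20, 57414773 to 57486247, plus strand, GRCh37). It had 1158, 1070.1 and 819.8 CPM in GFP replicates 1, 2 and 3, and 889, 919.9 and 868 CPM in POU5F1B replicates 1, 2 and 3. GFP replicates 1 and 2 were the highest libraries and GFP replicate 3 the lowest, so the groups overlapped. The log2 fold change of POU5F1B over GFP, from limma voom on all genes, was -0.17 ± 0.14 (± gives the SE of each such change; adjusted p = 0.663 over all tested genes). In bulk RNA such as this, fewer cells that express a gene and less RNA per cell cannot be told apart. Within replicates 1 and 2 alone the change was -0.31 ± 0.07 with an adjusted p of 0.00382 (limma voom), a difference smaller than the 2-fold limit. The locus is imprinted and also makes an antisense RNA, GNAS-AS1, which had at most 1 count in any library; another overlapping gene of the opposite strand, ENSG00000225806, had at most 12.

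The 3 inhibitory subunits GNAI1, GNAI2 and GNAI3 are close relatives that all restrain adenylyl cyclase. GNAI2 (ENSG00000114353; chromosome 3, 50263724 to 50296794, plus strand) had 364, 329 and 194 CPM with GFP and 273, 269 and 243 CPM with POU5F1B. Here too GFP replicates 1 and 2 were above, and GFP replicate 3 below, all 3 POU5F1B libraries. Its log2 fold change was -0.13 ± 0.24 (limma voom adjusted p = 0.863) over all libraries and -0.36 ± 0.08 (limma voom adjusted p = 0.0043) within replicates 1 and 2. GNAI3 (ENSG00000065135; chromosome 1, 110091237 to 110142817, plus strand) had 104, 107 and 128 CPM with GFP and 109, 119.7 and 95 CPM with POU5F1B. Its groups overlapped, and its log2 fold change was -0.07 ± 0.14 (limma voom adjusted p = 0.884), turning to 0.10 within replicates 1 and 2.

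GNAI1 differed from both of these relatives. GNAI1 (ENSG00000127955; chromosome 7, 79397344 to 79855497, plus strand) had 25, 12 and 2043 counts in GFP replicates 1, 2 and 3, and 11, 4 and 579 in POU5F1B replicates 1, 2 and 3. In both groups replicate 3 was high and the other replicates were low, at 4 to 25 counts beside the floor of 3. As CPM, replicate 3 was 118 times the mean of replicates 1 and 2 in GFP cells and 78 times in POU5F1B cells. Of the 14286 tested genes, 25 (0.175%) exceeded 10 times in both groups, and GNAI1 ranked as number 2 by the smaller of its 2 ratios. These ratios are a description, as each group has 1 library with that number and no test of the replicate number was made.

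With replicate 3 so far from the others, the comparison between the groups had little precision for GNAI1. The means were 60.3 ± 102 CPM with GFP and 16.5 ± 27.5 CPM with POU5F1B (SD, n = 3), and the log2 fold change was -1.34 ± 2.53 (limma voom adjusted p = 0.867). Without GFP replicate 3 the sign turned, to 0.93. Set against the library of the same number, GNAI1 was lower with POU5F1B in 3 of 3 comparisons. The differences in log2 CPM were -1.14, -1.01 and -1.88, and the first 2 rest on 4 to 25 counts per library.

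GNAI1 thereby changed the makeup of the inhibitory subunits in 1 library of each group. It took 35.6% of the summed counts of GNAI1, GNAI2 and GNAI3 in GFP replicate 3 (95% Wilson interval 34.3 to 36.8%) and 12.5% in POU5F1B replicate 3 (11.5 to 13.4%). In the other 4 libraries its share was 0.0954% to 0.448%, with upper limits of at most 0.66%. These intervals cover counting error only. The shares are of counts not divided by length, and the canonical transcript of GNAI1 has 10083 bases, that of GNAI2 2219. Per kilobase of canonical transcript, GFP replicate 3 had 17.6 CPM for GNAI1, 87.5 for GNAI2 and 14.1 for GNAI3. The share of GNAI1 was thus smaller on that scale. In CPM not divided by length, the summed level of the 3 genes was steadier than GNAI1 or GNAI2 alone. It was 470.2, 437 and 499.9 CPM with GFP and 384, 389 and 387 CPM with POU5F1B. All 3 POU5F1B libraries were below all 3 GFP libraries on this sum. The combination was chosen after the values were seen and is given without a test. Per kilobase of canonical transcript the groups did not separate. On that scale GNAI2 alone had 121 CPM in POU5F1B replicate 2, more than the 3 genes together in GFP replicate 3.

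Around GNAI1, 3 other genes within 2 Mb of the start of its canonical transcript, at 79764147, had at least 10 counts in total. MAGI2, at -681 kb from that start, had 24, 35 and 33 counts with GFP and 38, 28 and 19 with POU5F1B, with no rise in replicate 3. CD36, at 504 kb, had 0, 0 and 189 counts with GFP and 0, 0 and 25 with POU5F1B. SEMA3C, at 784 kb, had 4, 3 and 75 counts with GFP and 0, 1 and 10 with POU5F1B. CD36 and SEMA3C were thus, like GNAI1, highest in replicate 3 of each group and higher there in GFP than in POU5F1B cells. Both reached 10 counts only through their replicate 3 libraries, so the limit itself favoured this likeness. The share of all genes with such a pattern was not counted. GNAT3, the G alpha gene of taste cells, lies 232454 bases from GNAI1 and had 0 counts in all 6 libraries, which allows up to 0.278 CPM.

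The remaining Gi/o genes are better known from neurons and endocrine cells. GNAO1 (ENSG00000087258; chromosome 16, 56225302 to 56391356, plus strand) encodes the Go alpha subunit. It had 284, 293 and 128 counts in the GFP libraries, or 23.9, 22.3 and 11.1 CPM, and 132, 132 and 126 counts with POU5F1B, or 10.4, 12.2 and 10.5 CPM. GFP replicates 1 and 2 stood at about double the level of the other 4 libraries, and GFP replicate 3 lay within the POU5F1B range. Over all libraries the log2 fold change was -0.73 ± 0.33 (SE), with a limma voom adjusted p of 0.44. Within replicates 1 and 2 it was -1.05 ± 0.16 with a limma voom adjusted p of 0.000468, which passed the threshold of an adjusted p under 0.05 and a change above 2-fold. GNAO1 also passed when GFP replicate 3 was left out (-1.08). The neuroendocrine markers CHGA and SYP were likewise lower in POU5F1B replicates 1 and 2 than in the GFP libraries (SYP had 168, 178 and 230 counts with GFP and 37, 48 and 257 with POU5F1B), but were high in GFP replicate 3, where GNAO1 was low. Their part in the GNAO1 values was not tested.

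GNAZ (ENSG00000128266; chromosome 22, 23412705 to 23467219, plus strand) encodes Gz alpha, an inhibitor of adenylyl cyclase that pertussis toxin does not modify. It had the lowest mean CPM of the members, with 49, 31 and 105 counts with GFP and 36, 23 and 80 with POU5F1B. Replicate 3 was again the highest of each group, at 2.82 and 2.68 times the mean of the other replicates, a far smaller ratio than that of GNAI1. Its log2 fold change was -0.35 ± 0.61 (limma voom adjusted p = 0.856), and the sign turned to 0.15 without GFP replicate 3. RSPH14, which overlaps GNAZ on the opposite strand, had 4 to 9 counts.

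GNAQ and GNA11 encode the alpha subunits that couple receptors to phospholipase C beta. GNAQ (ENSG00000156052; chromosome 9, 80331013 to 80646727, minus strand) had 63.1, 61.9 and 76.2 CPM with GFP and 53.6, 61.0 and 54.8 CPM with POU5F1B. All 3 POU5F1B libraries were below all 3 GFP libraries, though GFP replicate 2 and POU5F1B replicate 2 differed by only 0.02 in log2 CPM. The log2 fold change was -0.24 ± 0.14 (limma voom adjusted p = 0.52). GNA11 (ENSG00000088256; chromosome 19, 3094360 to 3123997, plus strand) had 79.6, 78.9 and 66.7 CPM with GFP and 75.6, 58.7 and 74.6 CPM with POU5F1B, with overlapping groups and a fitted log2 change of -0.11 ± 0.15 (limma voom adjusted p = 0.805).

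GNA12 and GNA13 encode the alpha subunits of the G12/13 class, which is known for effects on cell shape and movement. GNA12 (ENSG00000146535; chromosome 7, 2767739 to 2883942, minus strand) was the only member with a positive log2 fold change, 0.15 ± 0.17 (limma voom adjusted p = 0.756). It had 103, 84.3 and 67.1 CPM with GFP and 94.4, 96.0 and 88.7 CPM with POU5F1B, so the POU5F1B libraries lay inside the GFP range, and without GFP replicate 3 the change was -0.015. GNA13 (ENSG00000120063; chromosome 17, 63005407 to 63052858, minus strand) had 87.7, 88.5 and 92.2 CPM with GFP and 76.0, 85.2 and 56.8 CPM with POU5F1B. Each POU5F1B library was below each GFP library, and POU5F1B replicate 3 was the lowest library. Its log2 fold change was -0.32 ± 0.17 (limma voom adjusted p = 0.492).

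**Figure D2:**
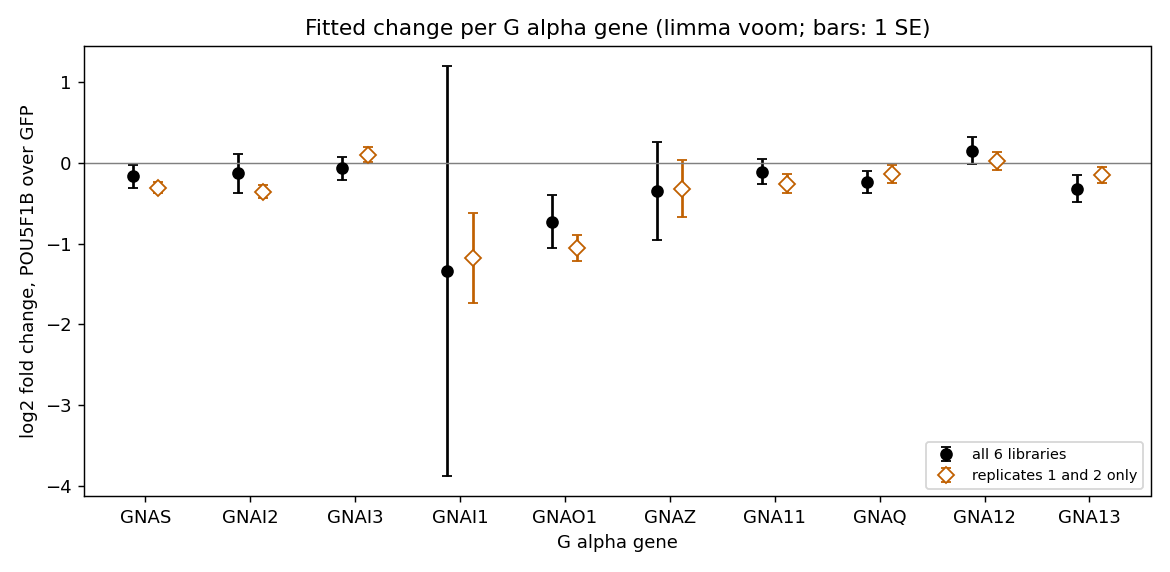
Log2 fold change of POU5F1B over GFP for each G alpha gene from limma voom, with all 6 libraries (filled circles) and with replicates 1 and 2 only (open diamonds); bars are 1 SE. GNAI1 has the widest bar (2.53), and GNAO1 moves from -0.73 to -1.05 when replicate 3 is left out of both groups.

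Over the family as a whole, 0 of the 10 members passed the threshold with all 6 libraries, against 0 of the 14286 tested genes (0%). None had an unadjusted p under 0.05 in limma voom, as had 1698 of all tested genes (11.9%; 6.07% higher and 5.82% lower with POU5F1B). The groups did not overlap for GNAQ and GNA13, both lower with POU5F1B, which makes 2 of 10 where 19.4% of all tested genes did not overlap (10.2% higher and 9.24% lower). Of the members, 9 had a negative log2 fold change and 1 a positive one, with a median of -0.21, whereas 53.1% of all tested genes were negative and their median was -0.02. Within replicates 1 and 2, GNAO1 was the 1 member of 10 past the threshold, next to 1194 of all genes (8.36%), of which 458 (3.21%) were higher and 736 (5.15%) lower. Since both replicate 3 libraries stand apart, this last comparison used a split made with earlier results known.

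The members did not move alike by replicate number. In replicates 1 and 2, GNAS, GNAI2, GNAI1, GNAO1, GNAZ, GNA11, GNAQ and GNA13 were lower with POU5F1B in both, by log2 CPM differences between -0.02 and -1.19. In replicate 3, GNAS (0.08), GNAI2 (0.33) and GNA11 (0.16) had the opposite sign, and GNA12 was higher by 0.40. GNAI3, by contrast, was slightly higher with POU5F1B in replicates 1 and 2 (0.07 and 0.17) and lower in replicate 3 (-0.43). GNAI1, GNAO1, GNAZ, GNAQ and GNA13 were lower in 3 of 3. The share of all tested genes with these patterns was not counted, and the replicate numbers were not taken as pairs.

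**Figure D3:**
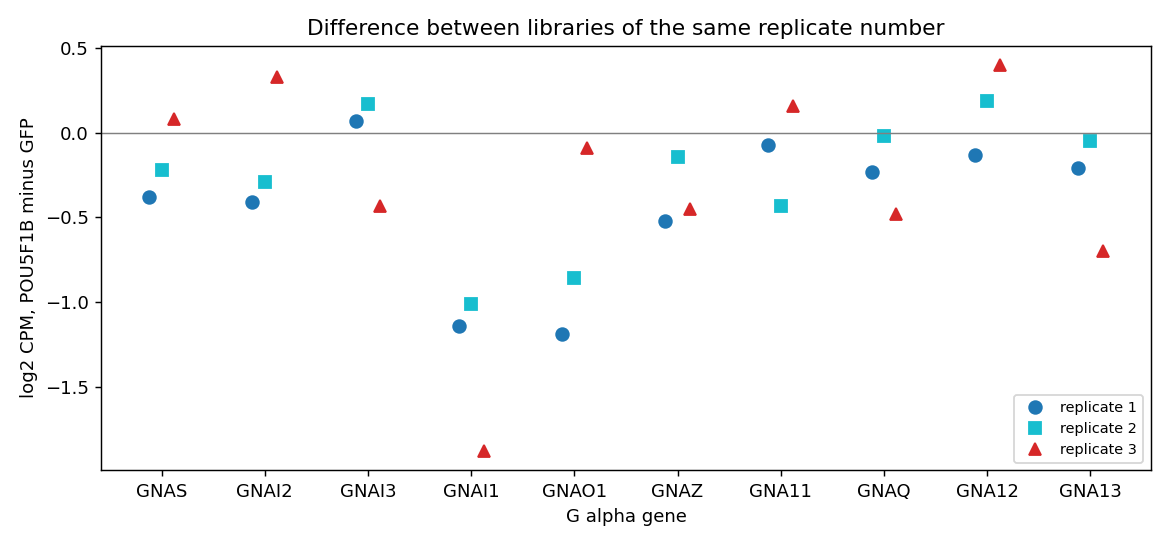
Difference in log2 CPM between the POU5F1B and the GFP library of the same replicate number for each G alpha gene; circles, squares and triangles are replicates 1, 2 and 3. GNAO1 is near 0 in replicate 3 (-0.09) but at -1.19 and -0.86 in replicates 1 and 2.

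The mean shares of the 4 classes in the family were close in both groups. Counts were divided by merged exon length and summed by class in each library. Gi/o took 37.7 ± 0.148% of this sum with GFP and 36.7 ± 0.147% with POU5F1B (SD, n = 3), Gs 29.8 ± 2.09% and 29.6 ± 0.477%, G12/13 18.2 ± 0.546% and 19.5 ± 1.44%, and Gq/11 14.2 ± 1.58% and 14.2 ± 1.11%. The Gi/o share was 37.6 to 37.8% in the GFP libraries and 36.5 to 36.8% in the POU5F1B libraries, without overlap, but without division by length the groups overlapped (24.8 to 31.7% over the 6 libraries). GNA12 took 8.15 to 10.1% with GFP and 11.2 to 11.3% with POU5F1B. Such a share depends on the other members of the sum as well. The CPM of GNA12 itself overlapped, at 67.1 to 103 with GFP and 88.7 to 96 with POU5F1B. GNAI2 alone took, of the sum over all 10 genes, 29.3%, 28.6% and 19.5% with GFP and 26.8%, 26.0% and 25.3% with POU5F1B, so that GFP replicate 3 was low. In GFP replicate 3, GNAI3 took 10.5% of the same sum, compared with 6.87% and 7.58% in GFP replicates 1 and 2, and GNAI1 took 5.45%. These shares depend on the length used: by canonical transcript Gs took 71.2% with GFP and 71.3% with POU5F1B, and Gi/o 20.7% and 20.2%.

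**Figure D4:**
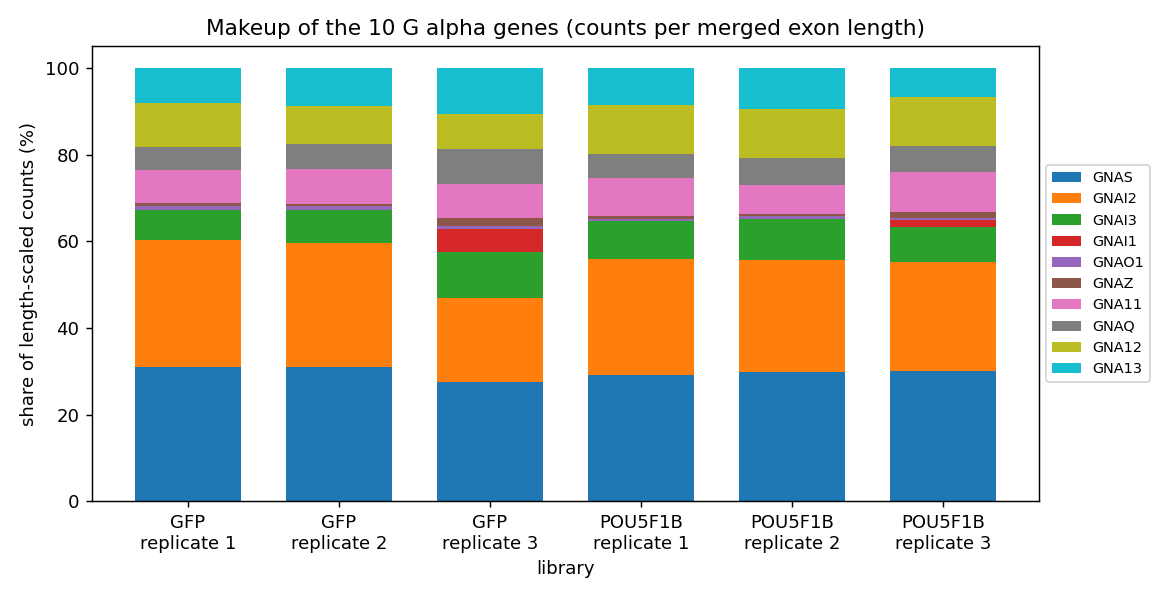
Share of each G alpha gene in the summed counts per merged exon length of the 10 genes, as stacked bars that reach 100% in each library. GNAI2 takes 19.5% in GFP replicate 3 and 25.3 to 29.3% elsewhere, and the red segment of GNAI1 is visible in the replicate 3 libraries only (5.45 and 1.53%).

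The genes whose pattern over the 6 libraries was most like that of the member with the highest level per length in each class were looked up among all tested genes. For GNAI2 they were RPN1 and NMT1 (Pearson r = 0.998 for both), for GNA12 RBPMS2 and FBXL19-AS1 (0.997 and 0.994), for GNA11 GPX1P1 and SHARPIN (0.992 and 0.991), and for GNAS ENSG00000141720, which had no symbol in the name table, and FBXO32 (0.995 and 0.993). With only 6 points, such values were shared by many genes: 339 genes had r above 0.95 with GNAI2, 216 with GNAS, 107 with GNA12 and 51 with GNA11. The lowest library was GFP replicate 3 for GNAI2, GNAS and GNA12, and POU5F1B replicate 2 for GNA11. How far single libraries set these correlations was not tested.

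The other G alpha genes and the partners of these subunits were read from the same fit. Of the 6 remaining G alpha genes, GNAL, which encodes a Gs relative known from olfactory neurons and striatum, was the only one tested, with 1346, 1221 and 1139 counts with GFP and 702, 650 and 1366 with POU5F1B (log2 fold change -0.49 ± 0.27; limma voom adjusted p = 0.524). Its level was low in POU5F1B replicates 1 and 2 only. GNA14, GNA15, GNAT1, GNAT2 and GNAT3 had at most 4 counts. GNA14 and GNA15 lie 67775 and 12034 bases from their relatives GNAQ and GNA11, and GNAT2 lies 2896 bases from GNAI3, so a high level of GNAQ, GNA11 or GNAI3 was not shared by the adjacent gene.

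Over 9 lists of partners with 111 genes, 98 had counts, 70 were tested and 0 passed the threshold with all libraries. Within a list, the most abundant gene is that with the highest mean CPM over all 6 libraries, not divided by length. An unadjusted p under 0.05 was reached by 12 of the 70 in limma voom, beside 11.9% of all tested genes, and the groups did not overlap for 14, of which 10 were higher and 4 lower, next to 19.4% of all tested genes (10.2% higher and 9.24% lower). The median log2 fold change was 0.10 over the 70, compared with -0.21 for the alpha subunits. Among beta subunits, GNB1 was most abundant (log2 fold change -0.17 ± 0.12) and GNB3 had the smallest p (0.77 ± 0.28), with limma voom adjusted p-values of 0.625 and 0.356. The gamma subunit GNG11 was both the most abundant of its list and the one with the smallest p, but with POU5F1B its mean of 42.5 CPM was below those of GNG5 (79.4), GNG12 (74.4) and GNG4 (59). It had 4064, 4065 and 1146 counts with GFP and 497, 464 and 544 with POU5F1B, that is lower in each POU5F1B library than in each GFP library, with a fitted log2 change of -2.38 ± 0.52 (limma voom adjusted p = 0.209).

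Among regulators of the alpha subunits, RGS3 was the most abundant RGS gene (0.05 ± 0.22; limma voom adjusted p = 0.956), and RGS5 had the smallest p, with 37, 44 and 15 counts with GFP and 9, 4 and 6 with POU5F1B (-2.14 ± 0.52; limma voom adjusted p = 0.236). RIC8A, a chaperone of newly made Gi, Gq and G13 alpha subunits, had 1342, 1414 and 1050 counts with GFP and 1873, 1553 and 1538 with POU5F1B, without overlap in CPM (0.43 ± 0.13; limma voom adjusted p = 0.3). Among effectors, ARHGEF12, an exchange factor downstream of G12/13, was most abundant (-0.13 ± 0.11; limma voom adjusted p = 0.677). ADCY3, an adenylyl cyclase, had 1994, 2012 and 1947 counts with GFP and 3408, 2573 and 2869 with POU5F1B (0.60 ± 0.11; limma voom adjusted p = 0.185). The kinases GRK2 and GRK3, which mark active receptors for arrestins, had log2 fold changes of -0.10 ± 0.27 and 0.62 ± 0.22 (limma voom adjusted p = 0.92 and 0.351).

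Receptors had a median fitted log2 change of 0.38 over 13 tested genes, 11 of them positive. Of all tested genes, 46.9% were positive and the median was -0.02. The groups did not overlap for 2 of the 13 receptors, both higher with POU5F1B, beside 19.4% of all tested genes (10.2% higher). CXCR4, a Gi-coupled chemokine receptor, was most abundant, although with POU5F1B its mean was 80.8 CPM beside 86.2 for F2RL1 (-0.14 ± 0.27; limma voom adjusted p = 0.868). ADORA2B, an adenosine receptor that couples to Gs, had 115, 95 and 137 counts with GFP and 468, 365 and 269 with POU5F1B, higher in each POU5F1B library (1.69 ± 0.29; limma voom adjusted p = 0.185). Genes that cAMP and the factor CREB are known to induce had a median of 0.67 over 10 tested genes, 6 positive and 4 negative. In this list the groups did not overlap for 2 genes that were higher and 1 that was lower with POU5F1B. SIK1, a kinase of this list, had 237, 240 and 362 counts with GFP and 624, 415 and 589 with POU5F1B (1.02 ± 0.23; limma voom adjusted p = 0.223), whereas PDE4D, a cAMP phosphodiesterase and the most abundant of the list, though with POU5F1B its mean was 224 CPM beside 230.2 for FOS, had 3260, 3471 and 3425 with GFP and 2872, 2515 and 2570 with POU5F1B (-0.31 ± 0.10; limma voom adjusted p = 0.317).

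Within replicates 1 and 2, 10 of the 70 partners passed the threshold, where 8.36% of all genes did. ADORA2B, F2RL1, NR4A2 and SIK1 were higher with POU5F1B, and GNG2, GNG7, GNG11, RGS5, RGS9 and PDE4B lower; F2RL1, NR4A2, GNG2, GNG7, RGS9 and PDE4B are named because they passed there. Whether the differences of alpha subunits and of partners are related was not tested.

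**Figure D5:**
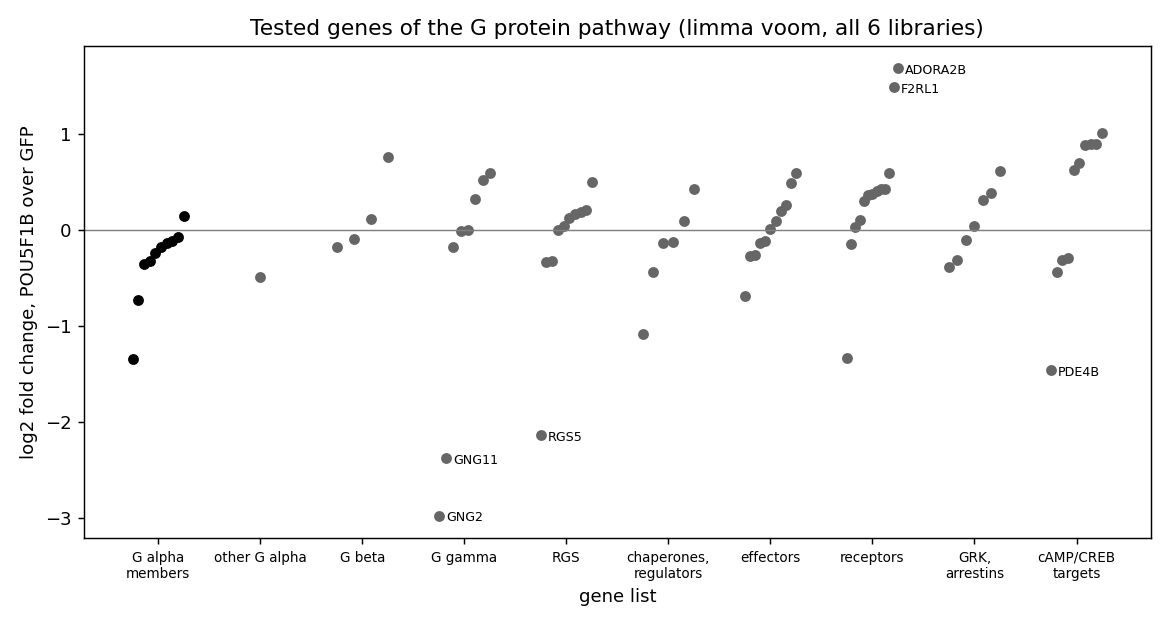
Log2 fold change of POU5F1B over GFP (limma voom, all 6 libraries) for the 10 G alpha members in black and the 70 tested partner genes in grey, ordered by value within each list; genes beyond 1.4 outside the G alpha list are named, PDE4B among them. Of the 10 members, 9 lie below 0, and none of the points passed the threshold.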

How the data were processed

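The authors deposited 1 table of raw counts per library: whole numbers per Ensembl gene, from reads mapped to hg19 with hisat2 and counted with featureCounts on genes and transposable elements together, unique mappers only. The kit was stranded; the annotation release, and whether counting used strand, are not given in the sources used here, so counts at overlapping genes are uncertain, and unique mapping can lose reads shared by close paralogs. Of 63677 rows, 87.4% had a symbol in the name table. Groups and replicate numbers came from the sample titles.

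Genes with low counts were removed by filterByExpr (edgeR 4.0.16; 14286 genes kept), and the rest were scaled by TMM and tested with voom of limma 3.58.1 in R 4.3.3, as the study's methods state, without a block. The threshold was an adjusted p-value (Benjamini-Hochberg, all tested genes) under 0.05 with a fold change above 2. The study named SW480 among the settings with enough upregulated genes for an analysis of annotation terms, whereas 0 genes passed here. The reason for this difference was not tested. Levels are CPM, with a prior count of 2 for log2 CPM. The members, partner lists, markers and settings were chosen with earlier results of these data known. Genes named are the 10 members, POU5F1B, in each list the most abundant gene and that with the smallest p, and the 2 genes most correlated (log2 CPM) with the member highest per length in each class; CD36, SEMA3C, MAGI2 and others said to be so were named after their values were seen. All 111 partner genes were found; of the marker genes, PECAM1 was not matched. Alternatives were edgeR's quasi-likelihood test, DESeq2 1.42.0, quality weights, other scalings and filters, the replicate block, replicates 1 and 2 only and leaving out each library. Canonical transcript length was added after the data had been seen. The tests were tried on simulated counts beforehand. Coordinates are on GRCh37, as lifted from GENCODE; merged exons and canonical transcripts come from it too. Promoters are RefSeq's, on GRCh38.p14.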

Additional observations from a re-analysis of the deposited data

How the results depend on the processing

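With all 6 libraries 0 genes passed, with 1698 at an unadjusted p under 0.05 in limma voom. Other settings moved this count: 232 with DESeq2, 1077 with quality weights, 4 with at least 1 count in total, 1194 with replicates 1 and 2 only, and 0 to 595 when 1 library was left out (595 without GFP replicate 3, 5 without POU5F1B replicate 3). edgeR gave 0 (1720 at an unadjusted p under 0.05). G alpha members past the threshold were 1 (GNAO1, -1.05 each time) with quality weights and with replicates 1 and 2 only, and 0 to 1 across fits without 1 library (GNAO1 without GFP replicate 3); in the other settings there were 0. Its adjusted p ranged from 0.000468 to 0.942. Partner genes past it were 4 with DESeq2, 9 with quality weights, 10 with replicates 1 and 2 only and 0 to 5 across fits without 1 library. The cause was not tested.

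In the fit with a replicate block, 1 gene passed (POU5F1B, 10.83), and 0 members and 0 partners did. Deviations of same-numbered libraries correlated at 0.242, 0.0883 and 0.165 for replicates 1, 2 and 3. Those of unlike number correlated at -0.277 to 0.25. GFP replicates 1 and 3 correlated best with the POU5F1B library of their own number, but GFP replicate 2 with POU5F1B replicate 1 (0.25). These values do not settle whether the numbers mark pairs, and they were not taken as pairs.

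Some signs turned. With replicates 1 and 2 only, GNAI3 was 0.10, RGS3 -0.24 and FBXL19-AS1 -0.0063; with quality weights GNAI3 was 0.05, RGS3 -0.18 and GRK2 0.076. Across fits without 1 library the values ran from -3.47 to 0.93 for GNAI1, -0.41 to 0.043 for GNAI2, -0.14 to 0.03 for GNAI3, -0.20 to 0.0041 for GNA11, -0.015 to 0.30 for GNA12, -0.82 to 0.15 for GNAZ, -0.21 to 0.19 for RGS3, -0.47 to 0.07 for CXCR4, -0.28 to 0.15 for GRK2, -0.0038 to 0.54 for RBPMS2, -0.051 to 0.36 for FBXL19-AS1, -0.29 to 0.018 for RPN1, -0.27 to 0.039 for NMT1, -0.81 to 0.12 for GPX1P1 and -0.22 to 0.0035 for SHARPIN. GNAO1, GNAQ, GNA13 and GNAS stayed negative in each setting run. Over the named genes and settings, 477 values kept sign and side of the threshold and 23 gained it. GNAI1 gave no value under the filter of 10 counts per library.

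Class shares, in GFP and POU5F1B cells, moved with the length. By the longest transcript they were 46.2 and 46.3% for Gs, 33.2 and 31.9% for Gi/o, 9.33 and 9.43% for Gq/11 and 11.3 and 12.5% for G12/13. Without division by length they were 55.4 and 56.3%, 27.2 and 25.3%, 7.83 and 7.96%, and 9.55 and 10.4%. By canonical transcript they were 71.2 and 71.3%, 20.7 and 20.2%, 3.66 and 3.68%, and 4.42 and 4.87%.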

Other observations

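A few partner genes, named after their values were seen, stood apart in single libraries or were too low to be tested. CCDC88A, a regulator that acts on Gi alpha subunits without a receptor, had 100, 199 and 1339 counts in GFP replicates 1, 2 and 3 and 128, 146 and 133 in the POU5F1B libraries, so that GFP replicate 3 alone was high. NTSR1, the Gq-coupled neurotensin receptor, had 121, 134 and 1144 counts in GFP and 311, 175 and 702 in POU5F1B cells, and PLCB1, an effector of Gq, had 2, 5 and 28 in GFP and 3, 4 and 11 in POU5F1B cells. Both were highest in replicate 3 of each group, as were GNAI1 and, among other genes looked at, GNG4, RGS16, PDE4B and VIL1. The share of all tested genes with this order was not counted, and PLCB1 did not pass the filter on low counts. RGS9 had 280, 300 and 34 counts in GFP and 132, 96 and 109 in POU5F1B cells, with GFP replicate 3 the lowest. RGS7, which forms a complex with the beta subunit GNB5, had 13, 10 and 16 counts in GFP and 0, 0 and 1 in POU5F1B cells, and did not pass the filter on low counts.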
